A study of Homo sapiens with 24 samples.

Results

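The HOX genes of the human genome lie in 4 clusters, HOXA, HOXB, HOXC and HOXD, and their chromatin was followed here by the acetylation of histone H3 lysine 27 (H3K27ac). Members were the H3K27ac peaks with a -log10 q of 2 or more that touched 1 of 4 windows of the hg19 genome build, which were chr7:27110001-27270000 (HOXA), chr17:46590001-46820000 (HOXB), chr12:54310001-54460000 (HOXC) and chr2:176930001-177070000 (HOXD). These windows held 351 of the 874637 peaks of the 20 ChIP libraries, 157 in TeloHAEC and 194 in Eahy926. Overlapping peaks of different libraries were merged into 61 regions. No measured value chose the windows.

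TeloHAEC is a telomerase-immortalized line of human aortic endothelial cells, and Eahy926 is a hybrid line made from human endothelial cells and a lung carcinoma line. Both were parental, without a CRISPR effector. Each is a single line, so a difference between them cannot be told apart from a difference between their growth media, of which only that of TeloHAEC contains vascular endothelial growth factor (VEGF). Each line had 4 control ChIP libraries in its usual medium, 2 prepared on library day 0 and 2 on library day 1. The other 12 libraries were all prepared on day 1, and each line had 2 for each of 3 treatments. The cytokines interleukin 1 beta (IL1b) and tumor necrosis factor alpha (TNFa) were given at 10 ng/ml for 24 h. VEGF was left out of the TeloHAEC medium or put into the Eahy926 medium, also for 24 h. Libraries are named by day and replicate, so that control 1.2 is the day 1 control of replicate 2. The labels call the replicates biological but do not say that equal numbers share a culture, so p-values measure the spread between these libraries.

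HOX genes encode homeodomain transcription factors that give cells along the body axis their positional identity. Within a cluster the genes at the 3' end act in anterior parts of the embryo and those at the 5' end in posterior parts, and adult endothelial and mesenchymal cells keep a HOX pattern that reflects where in the body they came from. H3K27ac marks active promoters and enhancers, whereas silent HOX genes are usually covered by Polycomb repression and lack it. HOX proteins bind DNA together with the TALE homeodomain cofactors of the PBX, MEIS and PKNOX families.

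Depth differed by day. The 4 day 0 ChIP libraries held 18387194 to 21135399 tags and 10 to 34 HOX peaks each, and the 16 day 1 ChIP libraries held 3843129 to 7122108 tags and 8 to 22 HOX peaks. The 4 input libraries held 13780878 to 16036165 tags and no HOX peak at this threshold, and as deposited they held 2 peaks in HOXB and 0 in the other 3 clusters. The endothelial loci CDH5, PECAM1, VWF, ERG, KDR and TEK carried peaks in 10 of 10 libraries of each line. Among epithelial loci, KRT18 and KRT19 did so too, KRT8 in 9 TeloHAEC and 10 Eahy926 libraries, and CDH1, which encodes E-cadherin, in none.

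The bases before 4 HOX gene starts are printed to set starts with and without a peak side by side. Each is 250 bases long, printed 5' to 3' on the gene's strand from RefSeq (GRCh38.p14, a later build than that of the peaks), with CG dinucleotides in capitals. HOXA4 (chr7:27130758-27131007, minus strand, 26 CG) carried a peak in both lines, HOXA9 (chr7:27165538-27165787, minus strand, 20 CG) only in day 0 Eahy926 libraries, HOXD8 (chr2:176129455-176129704, plus strand, 28 CG) in all 10 Eahy926 libraries and no TeloHAEC library, and HOXD4 (chr2:176151300-176151549, plus strand, 4 CG) in none.
HOXA4: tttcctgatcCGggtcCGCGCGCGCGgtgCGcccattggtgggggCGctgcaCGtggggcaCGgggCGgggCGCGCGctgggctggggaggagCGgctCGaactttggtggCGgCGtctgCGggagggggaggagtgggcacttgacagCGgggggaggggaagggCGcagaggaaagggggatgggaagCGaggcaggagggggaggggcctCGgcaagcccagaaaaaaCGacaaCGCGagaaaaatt
HOXA9: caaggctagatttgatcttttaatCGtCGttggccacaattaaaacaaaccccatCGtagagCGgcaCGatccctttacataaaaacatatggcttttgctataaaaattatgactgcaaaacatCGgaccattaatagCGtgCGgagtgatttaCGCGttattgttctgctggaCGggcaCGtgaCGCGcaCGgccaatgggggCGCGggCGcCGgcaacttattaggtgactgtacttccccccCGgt
HOXD8: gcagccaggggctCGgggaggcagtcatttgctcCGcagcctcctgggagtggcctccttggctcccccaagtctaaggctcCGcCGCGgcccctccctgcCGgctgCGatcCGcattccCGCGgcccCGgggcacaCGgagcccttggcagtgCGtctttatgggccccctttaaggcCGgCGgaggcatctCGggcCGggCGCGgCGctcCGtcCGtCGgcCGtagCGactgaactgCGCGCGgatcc
HOXD4: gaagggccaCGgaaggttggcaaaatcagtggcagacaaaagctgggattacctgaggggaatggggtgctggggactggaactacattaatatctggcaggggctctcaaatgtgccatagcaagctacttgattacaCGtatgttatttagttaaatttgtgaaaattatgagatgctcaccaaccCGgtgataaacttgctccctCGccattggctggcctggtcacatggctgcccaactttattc
The RefSeq table held 27 promoters of 20 of the 38 HOX genes, with a median of 22 CG in 300 bases against 14 over all 35097 promoters. HOXD4, with 4, does not stand for the genes without a peak at their start. The others had 44 CG at HOXA13, 29 at HOXA6, 27 at HOXD11, 25 at HOXD3, 24 at HOXD13 and 23 at HOXD10. HOXD12 had 19, HOXA2 and HOXB1 had 11 each, and the promoters of HOXA3 had 0 to 29. The letters TGATNNAT, searched on both strands as a composite HOX and PBX motif, occurred in 3 of these 27 (11.1%) and in 7.40% of all promoters.

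Of the 61 regions, 21 had peaks in TeloHAEC only, 32 in Eahy926 only and 8 in both, and 17 rested on 1 library. HOXA held 22 regions (2 TeloHAEC only, 15 Eahy926 only, 5 both) and HOXB held 22 (19 TeloHAEC only, 0 Eahy926 only, 3 both). All 10 HOXC regions and all 7 HOXD regions had peaks in Eahy926 only. No TeloHAEC library had a HOXC or HOXD peak, and none of their lists as deposited held one either, including the day 0 libraries with 18387194 and 20952578 tags. In the windows of 1 kb to each side of the 38 HOX gene starts examined, 8 genes had a peak in at least 1 TeloHAEC library, 15 in at least 1 Eahy926 library, 3 in both lines and 18 in neither. The 18 include HOXA3, judged at a single start.

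**Figure D1:**
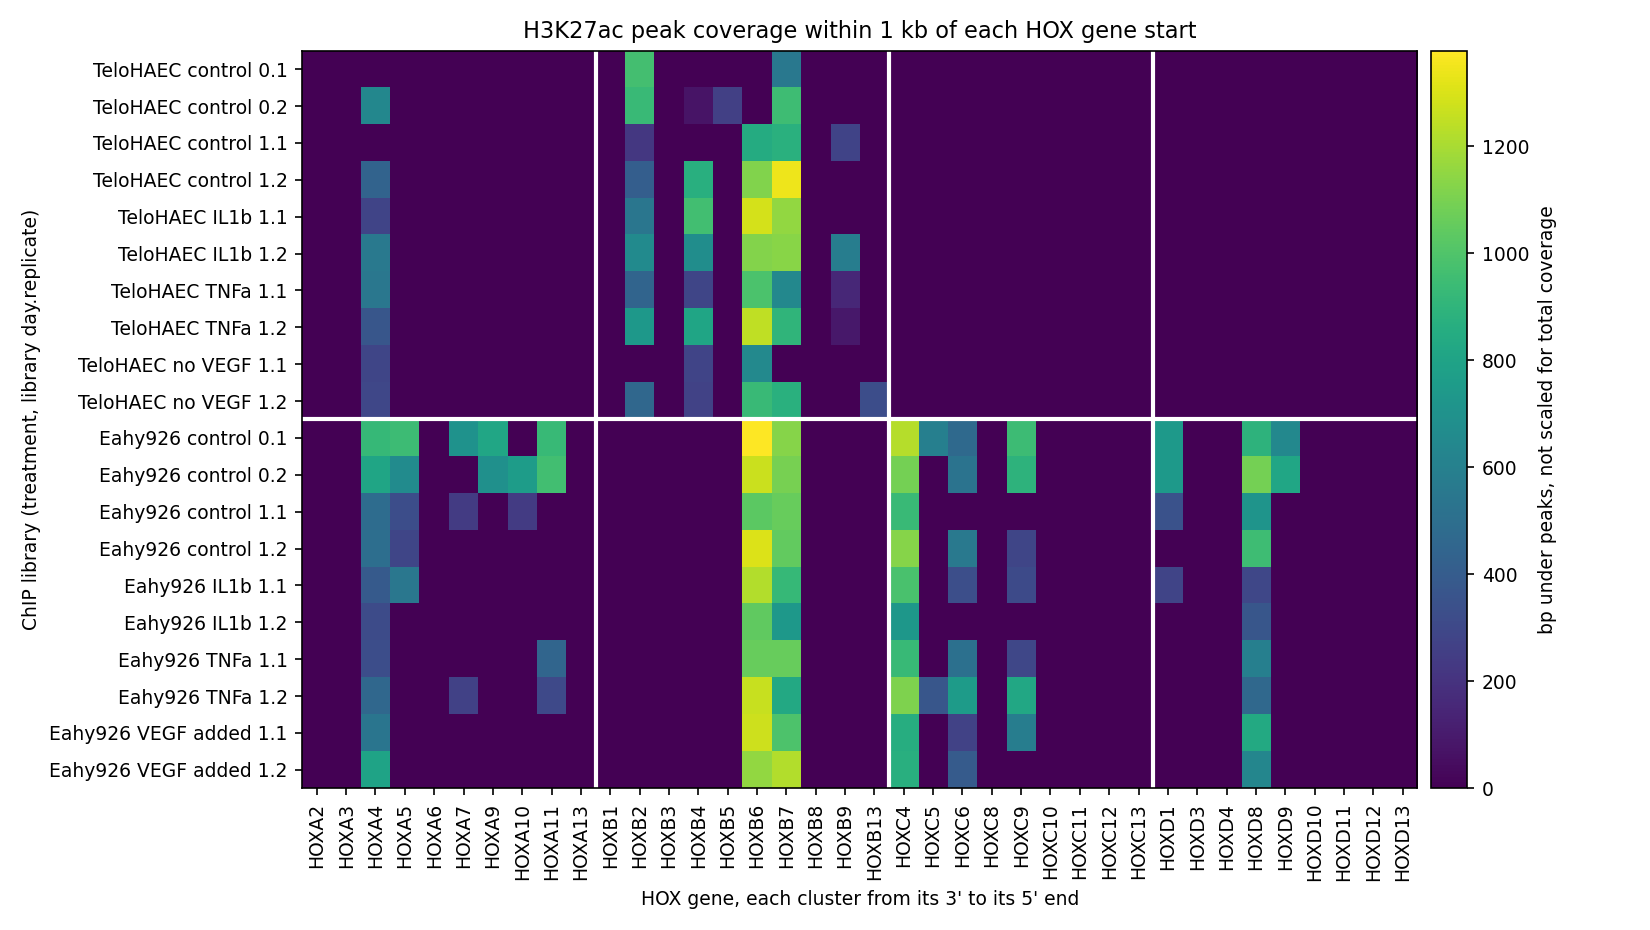
Peak coverage within 1 kb of the 38 HOX gene starts (columns, each cluster from 3' to 5') in the 20 ChIP libraries (rows, named by treatment, library day and replicate), as bp under peaks without scaling. The HOXC and HOXD columns are at 0 in all 10 TeloHAEC rows, and HOXB6 and HOXB7 are bright in both lines, except for 0 bp in the day 0 TeloHAEC controls at HOXB6 and in VEGF-omitted 1.1 of TeloHAEC at HOXB7.

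Along HOXA, the 5 regions with peaks in both lines all lay between the 3' end and HOXA4, among others with peaks in 1 line only. At gene starts from HOXA5 on, coverage was found only in Eahy926. At HOXA4 the unscaled covered length was 0 bp at the lowest, 332 at the median and 636 at the highest over 10 TeloHAEC libraries, and 314, 493 and 926 bp over 10 Eahy926 libraries. The lines overlapped, and the 2 TeloHAEC libraries at 0 were controls 0.1 and 1.1.

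The only region with a peak in all 20 libraries was chr7:27152535-27154187, between the starts of HOXA2 and HOXA3. Its highest fold enrichment, the authors' ratio of a peak's pileup to its local background, was 6.97 in TeloHAEC and 8.95 in Eahy926. It lay 10.1 to 11.8 kb from the HOXA2 start, and RefSeq gives 7 starts for HOXA3, of which 1 is 11.2 kb from that of HOXA2. The 5' genes followed another pattern. HOXA5 had a peak in 5 Eahy926 libraries, HOXA7 in 3, HOXA9 in 2, HOXA10 in 2 and HOXA11 in 4, and none of the 5 had one in TeloHAEC. HOXA9, a posterior group gene known for its part in endothelial and blood cell development, had 818 and 692 bp in Eahy926 controls 0.1 and 0.2 and 0 bp in the other 8 libraries of that line. HOXA2, HOXA6 and HOXA13 had no peak at their start, nor did the RNA gene HOTTIP beyond HOXA13. The 2 HOXA regions found in TeloHAEC only were seen on day 1 only.

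Along HOXB, the starts of HOXB2 and HOXB4 were covered in TeloHAEC only and those of HOXB6 and HOXB7 in both lines. At HOXB2 the unscaled length was 0, 504 and 968 bp at the lowest, median and highest of 10 TeloHAEC libraries and 0 bp in all 10 Eahy926 libraries. The single TeloHAEC library at 0 was VEGF-omitted 1.1. A region of 2237 bp at chr17:46618700-46620936, 1457 bp from the HOXB2 start, had a peak in 10 of 10 TeloHAEC libraries and in no Eahy926 library. HOXB4 had a peak in 8 TeloHAEC libraries, with 0, 284 and 959 bp, and in no Eahy926 library.

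HOXB6 and HOXB7 were the HOXB starts covered in both lines. HOXB6 had 0, 960 and 1290 bp in TeloHAEC and 1033, 1241 and 1379 bp in Eahy926. The 2 TeloHAEC libraries at 0 at HOXB6 were the day 0 controls, which were the 2 most deeply sequenced of that line, and their lists as deposited had no peak there. HOXB7 had 0, 889 and 1343 bp in TeloHAEC and 735, 1054 and 1219 bp in Eahy926. The lines overlapped in length at HOXB7, while the highest fold enrichment was 4.77 in TeloHAEC and 11.5 in Eahy926.

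The remaining HOXB genes were covered rarely. HOXB9 had a peak in 4 TeloHAEC libraries, and HOXB5 and HOXB13, the latter far from the rest of the cluster at its 5' end, in 1 each. HOXB1, HOXB3 and HOXB8 had none. The microRNA gene MIR10A, between HOXB4 and HOXB5, lay within 1 kb of a peak in 4 TeloHAEC libraries and in no Eahy926 library. Only 86 to 170 bp were covered there, at the edge of the region chr17:46655925-46656423, which lay 182 bp from the HOXB4 start. The mature product of MIR10A is a microRNA whose seed (bases 2 to 8, in capitals) pairs with target transcripts. It is printed from RefSeq because MIR10A had a peak within 1 kb in more libraries than the other microRNA genes of the clusters. MIR615 in HOXC had one in 2 Eahy926 libraries, with 508 bp in control 0.1 and 371 bp in TNFa 1.2. That peak is the one at the HOXC5 start. MIR196B in HOXA had one in 1 Eahy926 library, with 8 bp. These peaks are therefore not assigned to the microRNA genes themselves.
hsa-miR-10a-5p: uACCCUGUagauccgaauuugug

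Along HOXC, all coverage was in Eahy926 and lay in the 3' part of the cluster, from HOXC4 to a little beyond HOXC9. HOXC4 had 730, 958 and 1226 bp at the lowest, median and highest of 10 Eahy926 libraries, with a highest fold enrichment of 9.08. HOXC6 had 0, 434 and 758 bp, with control 1.1 and IL1b 1.2 at 0. HOXC9, a posterior group gene, had 0, 304 and 947 bp. The region closest to the 5' end, chr12:54388941-54390097, lay 3780 bp from the HOXC9 start and had a peak in 9 Eahy926 libraries. The wider of the 2 HOXC regions with a peak in all 10 Eahy926 libraries, chr12:54411747-54413607 (1861 bp), lay at no entered gene start. It was 8.86 to 10.7 kb from the HOXC8 start, and RefSeq places a start of HOXC6 7.90 kb from that of HOXC8. HOXC5 had a peak in 2 Eahy926 libraries, and HOXC8, HOXC10, HOXC11, HOXC12 and HOXC13 had none, nor did the antisense RNA gene HOTAIR.

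Along HOXD, coverage centred on HOXD8, with 296, 675 and 1090 bp at the lowest, median and highest of 10 Eahy926 libraries. HOXD1 at the 3' end, whose start is shared with the RNA gene HAGLR, had 748 and 745 bp in day 0 controls 0.1 and 0.2, 350 bp in control 1.1, 283 bp in IL1b 1.1 and 0 bp in the other 6 Eahy926 libraries. HOXD9 had 645 and 818 bp in day 0 controls 0.1 and 0.2 and was at 0 in the 8 day 1 libraries. HOXD3, HOXD4, HOXD10, HOXD11, HOXD12 and HOXD13 had no peak at their start, and neither did EVX2 beyond HOXD13.

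**Figure D2:**
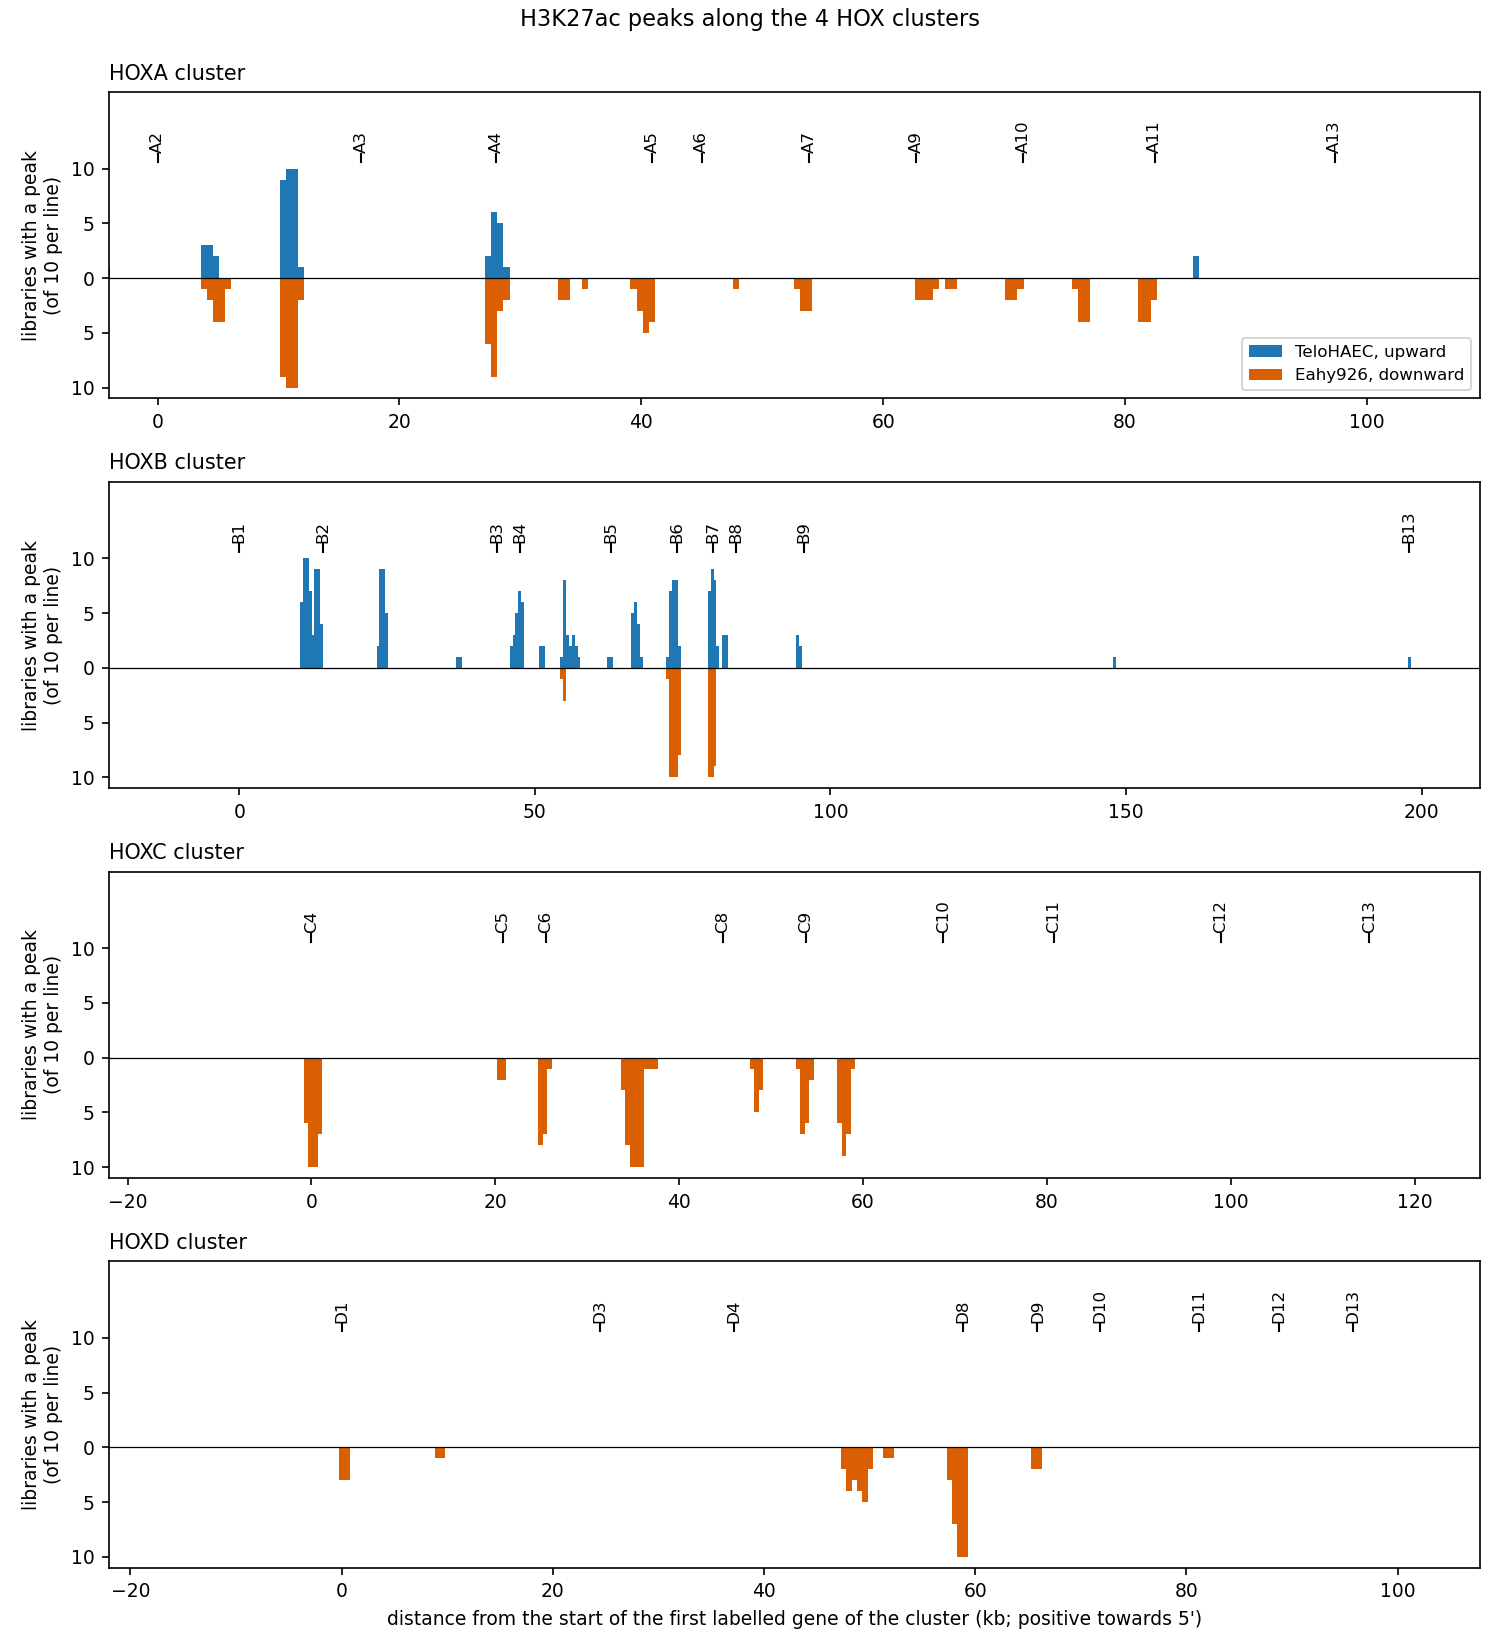
Number of libraries with a peak in steps of 0.5 kb along each cluster, TeloHAEC upward and Eahy926 downward, of 10 per line, against distance from the first labelled HOX gene start in kb, with gene starts ticked above. TeloHAEC bars stand in HOXA and HOXB only, and in HOXA the column that reaches 10 in both lines lies between A2 and A3.

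Genes of a paralog group descend from 1 ancestral gene and encode similar proteins. In group 4 the pattern differed from gene to gene. HOXA4 had peaks in both lines, HOXB4 in TeloHAEC only, HOXC4 in Eahy926 only and HOXD4 in neither. In group 9, HOXA9, HOXC9 and HOXD9 had peaks in Eahy926 only and HOXB9 in TeloHAEC only. The 3 genes of group 3 and the 2 of group 12 had none at their entered start. By its distance from HOXA2, 1 of the 7 RefSeq starts of HOXA3 lay in the region found in all 20 libraries. That start is not counted here. Of the 7 genes examined in groups 1 to 3, 1 had a peak in each line (HOXB2 in TeloHAEC and HOXD1 in Eahy926), and of the 15 genes of groups 4 to 8, 5 had one in TeloHAEC and 9 in Eahy926. Of the 16 posterior genes of groups 9 to 13, 2 had a peak in TeloHAEC (HOXB9 and HOXB13), 5 in Eahy926 (HOXA9, HOXA10, HOXA11, HOXC9 and HOXD9) and 0 in both. No posterior gene had a peak in 8 or more libraries of a line, against 4 central genes in TeloHAEC and 6 in Eahy926.

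For tests, covered length was scaled to the total length under peaks of each library. Over the 4 controls of each line, HOXA held 1754 ± 757 scaled bp (SD, n = 4) in TeloHAEC and 5192 ± 2277 (SD, n = 4) in Eahy926. The single values were 1800, 2398, 679 and 2140 bp in TeloHAEC controls 0.1, 0.2, 1.1 and 1.2 and 7449, 6800, 3708 and 2812 bp in the same Eahy926 controls. Every Eahy926 control lay above every TeloHAEC control. The means of log2(scaled bp + 200) differed by -1.47 for TeloHAEC minus Eahy926, which is 2.77-fold on that scale. This was called (two-sided exact permutation test, p = 0.0286, the smallest that 4 against 4 allows). Here and for the other clusters the test exchanged libraries without regard to library day. This call was lost with an equal number of top peaks (-1.24, exact permutation p = 0.114). Within days the means were 2099 ± 423 and 7125 ± 459 bp on day 0 and 1410 ± 1033 and 3260 ± 634 bp on day 1 (TeloHAEC and Eahy926, SD, n = 2).

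HOXB went the other way in the means, with 5361 ± 2326 scaled bp in TeloHAEC and 2430 ± 222 in Eahy926 (SD, n = 4), a log2 difference of 0.97 that did not pass the test (exact permutation p = 0.0571) and that turned to -0.75 when the same number of top peaks was taken from each library and to -1.02 with an equal covered length. The TeloHAEC values were 2595, 4417, 6577 and 7854 bp in controls 0.1, 0.2, 1.1 and 1.2, and those of Eahy926 were 2283, 2207, 2680 and 2548 bp. The ranges overlapped through TeloHAEC control 0.1. HOXC held 4169 ± 312 scaled bp in Eahy926 controls and HOXD 2343 ± 1030 (SD, n = 4), and both clusters were listed at 0 in all 4 TeloHAEC controls (exact permutation p = 0.0286 each). For HOXD this call was lost with an equal covered length (exact permutation p = 0.429).

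**Figure D3:**
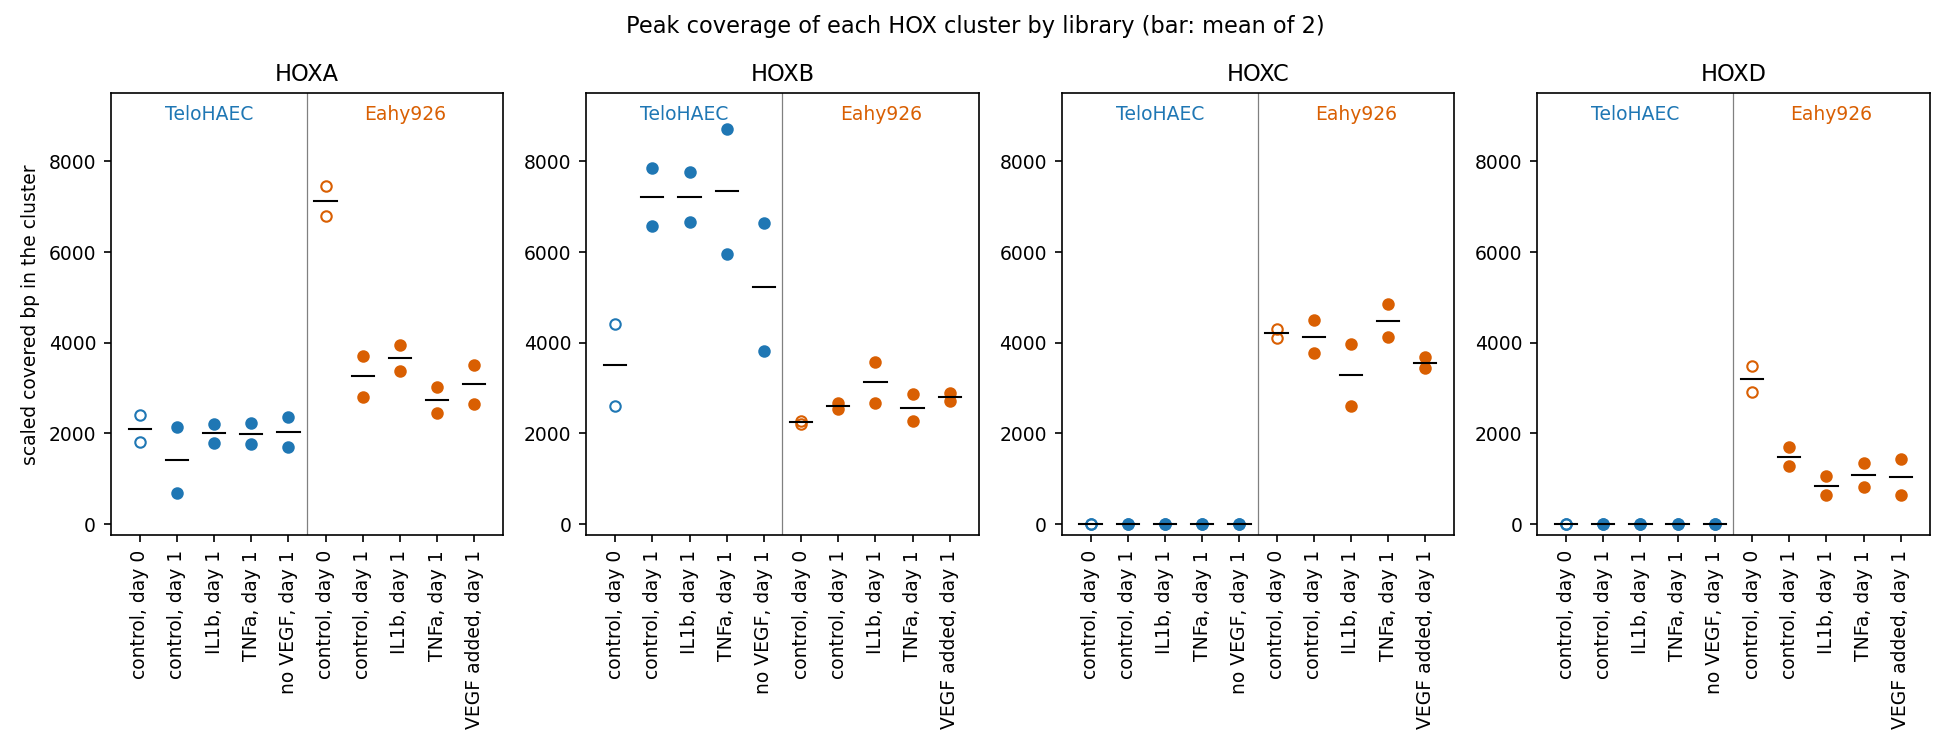
Scaled covered bp of each HOX cluster (vertical axis) in every ChIP library by line, library day and treatment, with day 0 as open and day 1 as filled circles and the mean of 2 libraries as a bar. HOXC and HOXD sit at 0 in the 10 TeloHAEC libraries and between 642 and 4855 bp in the 10 Eahy926 libraries.

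Position along the clusters was then tested in 10-kb bins of the genome with limma, over all 39412 bins with enough coverage. The clusters held 24 of these bins. Of the 24, 12 were listed at 0 in all 10 TeloHAEC libraries and 5 in all 10 Eahy926 libraries. These 17 passed the filter on low coverage only through the other line, which fixed their direction, so the counts and medians over the 24 bins are a description. Between the control libraries of the lines, 19 of the 24 were called at an adjusted p under 0.05, where 43.0% of all bins were called. Of these, 4 were higher in TeloHAEC, all in HOXB (22.8% of all bins were higher), and 15 were lower (20.1% of all bins). The lower bins were 5 of 8 in HOXA, 1 of 7 in HOXB, 5 of 5 in HOXC and 4 of 4 in HOXD. Of the 19 called bins, 16 were among these 17. The other 3, all lower in TeloHAEC, were those of HOXA4, HOXA11, and HOXB6 with HOXB7, out of 7 bins covered in both lines. The HOXA11 bin, too, reached 500 bp before scaling in Eahy926 libraries only and was at 0 in all 4 TeloHAEC controls. Its direction was therefore fixed as well. The median log2 difference of the 24 bins was -1.17, against -0.03 over all bins, and by cluster it was -1.17 in HOXA, 1.88 in HOXB, -2.05 in HOXC and -1.59 in HOXD. The controls of the lines did not overlap in 4 of the called higher and 7 of the called lower bins (10.9% and 12.2% of all bins).

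The 3 HOXB bins with the largest difference covered the HOXB2 gene and its surroundings. The bin chr17:46610001-46620000 on the 3' side of HOXB2 had 740 ± 189 scaled bp in TeloHAEC controls (SD, n = 4), the bin with the HOXB2 start had 931 ± 366, and the next one towards 5' had 637 ± 214. All 3 were called, and all 3 were listed at 0 in the 10 Eahy926 libraries, so they are given as values with no p. In TeloHAEC the HOXB2 bin held 707, 981, 609 and 1426 bp in controls 0.1, 0.2, 1.1 and 1.2, so each control lay above 0.

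In HOXC the bin chr12:54410001-54420000, which holds the wide region between HOXC8 and HOXC6, had 1369 ± 236 scaled bp in Eahy926 controls (SD, n = 4). The HOXC4 bin had 1001 ± 215 and the HOXC9 bin 710 ± 445. The HOXD8 bin had 964 ± 254, and in HOXA the bin with HOXA5 and HOXA6 had 553 ± 195. These 5 bins were called and were listed at 0 in all 10 TeloHAEC libraries, so that for them, too, the filter fixed the direction and no p is given.

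Among the bins covered in both lines, that of HOXA4 was called, with 196 ± 226 scaled bp in TeloHAEC and 707 ± 148 in Eahy926 controls (SD, n = 4, log2 difference -1.38 ± 0.38 SE, limma adjusted p = 0.0112). TeloHAEC controls 0.1 and 1.1 were at 0 and 0.2 and 1.2 at 396 and 386 bp, all below the lowest Eahy926 control at 493 bp. This call was lost without TeloHAEC control 0.1 (adjusted p = 0.0547), on each day alone (0.0556 and 0.106) and when the compared groups were fitted alone (0.0816). The HOXA3 bin, with the region found in all libraries, had 818 ± 106 and 932 ± 98.2 bp and was not called (log2 difference -0.15 ± 0.14 SE, adjusted p = 0.406).

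**Figure D4:**
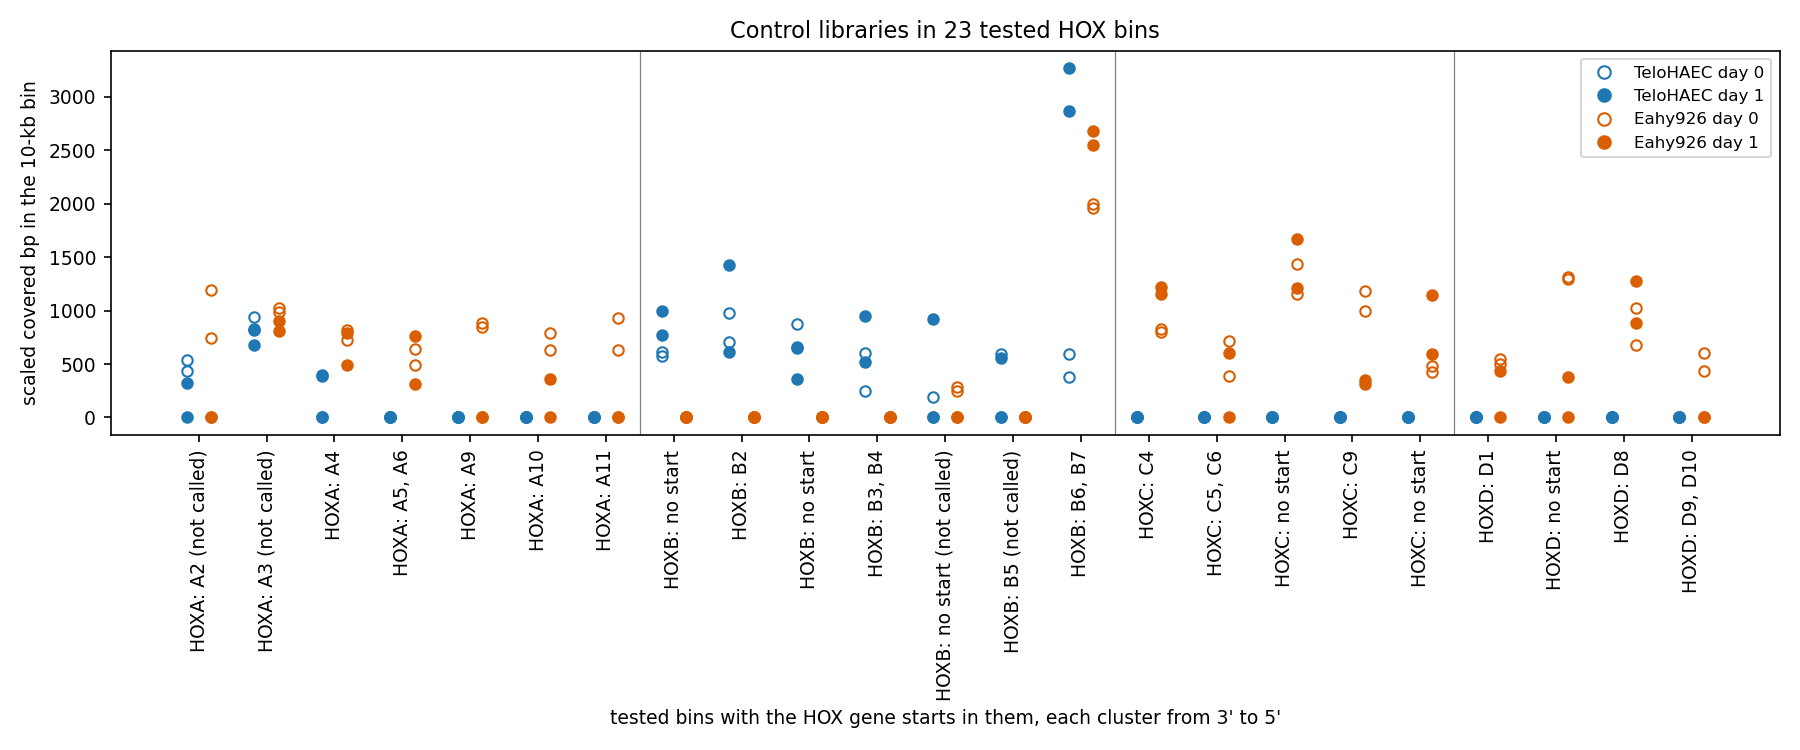
Scaled covered bp of the 4 control libraries of each line in 23 of the 24 tested HOX bins, each cluster from 3' to 5' and labelled by the HOX starts in the bin, with day 0 as open and day 1 as filled circles. In the HOXB6 and HOXB7 bin the TeloHAEC controls lie at 375 and 592 bp on day 0 and at 3268 and 2869 bp on day 1.

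The bin of HOXB6 and HOXB7 was called lower in TeloHAEC over both days (log2 difference -0.74 ± 0.17 SE, limma adjusted p = 0.00444), but its direction turned with the library day. On day 0 the TeloHAEC controls held 375 and 592 scaled bp and the Eahy926 controls 1998 and 1959 (-1.69 ± 0.25 SE, adjusted p = 0.000171). On day 1 they held 3268 and 2869 bp and 2680 and 2548 bp (0.21 ± 0.25 SE, adjusted p = 0.576). This bin was singled out after its values were seen. With day 1 controls alone, 10 of the 24 bins were called between lines (27.7% of all bins), and with day 0 controls alone 18 were (30.1% of all bins).

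The day was therefore compared within each line, a comparison added after the data were seen. In TeloHAEC the bin of HOXB6 and HOXB7 was the only 1 of the 24 HOX bins called between day 1 and day 0 controls (16.4% of all bins were called, 6.26% higher on day 1), with a log2 difference of 2.27 ± 0.25 SE (limma adjusted p = 4.22e-05). In Eahy926, 5 of the 24 were called, all lower on day 1 (7.40% of all bins were called, 5.64% lower). They held the starts of HOXA2, HOXA9, HOXA11 and of HOXD9 with HOXD10, and the stretch of HOXD between HOXD8 and HOXD4.

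The HOXA9 bin held 849 and 882 scaled bp on day 0 and was at 0 in both day 1 controls, and the HOXD9 and HOXD10 bin held 436 and 602 bp and then 0. These 2 bins passed the filter only through the day 0 Eahy926 libraries, so no p is given. The HOXA11 bin and that of the HOXD stretch also reached 500 bp before scaling in those libraries only. For all but the HOXA2 bin the filter thus set the direction. The HOXA2 bin also reached 500 bp before scaling in day 0 libraries only, though in those of both lines. The count of called Eahy926 bins is therefore a description. In all, 10 HOX regions had peaks in Eahy926 on day 0 only, 6 of them in HOXA, 2 in HOXC and 2 in HOXD. In TeloHAEC, 14 regions had peaks on day 1 only, 12 of them in HOXB. Every day 0 library was deeper than every day 1 library, so library day and depth cannot be told apart. Without TeloHAEC control 1.2, 3 HOX bins (12.5%) were called in TeloHAEC, where 28.9% of all bins were. Without Eahy926 control 0.1, 0.2 or 1.2, 3 were called in Eahy926 (3.73%, 3.99% and 5.26% of all bins).

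No HOX bin of TeloHAEC passed the threshold after a treatment, but many could not, being at 0 in both treated libraries and both day 1 controls. Such bins numbered 13 of the 24 for IL1b, 12 for TNFa and 12 for VEGF omission. With IL1b, 0 of the 24 HOX bins were called by limma (4.29% of all bins were) and 0 had an unadjusted p under 0.05. With TNFa, 0 were called (3.55% of all bins), and 1 had an unadjusted p under 0.05. When VEGF was left out, 0 were called (1.67% of all bins), and 4 had an unadjusted p under 0.05.

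The bin of HOXB6 and HOXB7 had the smallest p in TeloHAEC both with TNFa and without VEGF, and is described for that reason after its values were seen. The day 1 controls held 3268 and 2869 scaled bp there, against 2261 and 2638 bp with IL1b, 1715 and 1883 bp with TNFa, and 1150 and 2075 bp without VEGF. All 6 treated libraries lay below both controls after scaling, which multiplied control 1.1 by 1.90. Unscaled, the HOXB6 start had 846 and 1120 bp in controls 1.1 and 1.2 and 1290 and 1122 bp with IL1b. It had 986 and 1246 bp with TNFa and 648 and 934 bp without VEGF. The log2 difference was -0.71 ± 0.25 SE with TNFa (adjusted p = 0.170) and -0.90 ± 0.25 SE without VEGF (adjusted p = 0.116), and neither passed the test. Without VEGF-omitted 1.2, 3 HOX bins were called lower after VEGF omission (6.80% of all bins were called in either direction). Without control 1.2, 1 was called higher there and 2 higher with TNFa (10.4% and 16.5% of all bins).

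HOXC and HOXD stayed at 0 bp in the 6 treated TeloHAEC libraries. Treated Eahy926 libraries held 2608 to 4855 scaled bp in HOXC and 642 to 1425 bp in HOXD. The corresponding day 1 controls 1.1 and 1.2 held 3767 and 4494 bp in HOXC, and 1694 and 1281 bp in HOXD.

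In Eahy926, too, no HOX bin passed the threshold, and 10 of the 24 for IL1b, 7 for TNFa and 9 for VEGF addition were at 0 in all 4 libraries compared. With IL1b, 0 of 24 were called (0.794% of all bins) and 3 had an unadjusted p under 0.05. With TNFa the numbers were 0 (1.21% of all bins) and 4, and with added VEGF 0 (0.259% of all bins) and 1. Without IL1b 1.1, 3 HOX bins were called lower with IL1b (4.60% of all bins).

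The bins nearest to the threshold in Eahy926 are given as values only, chosen after these were seen. The HOXA11 bin was at 0 scaled bp in both day 1 controls and at 529 and 299 bp with TNFa (limma adjusted p = 0.122), and was at 0 in the 4 libraries with IL1b or added VEGF. The bin of HOXA5 and HOXA6 held 766 and 313 bp in controls 1.1 and 1.2, 681 and 0 bp with IL1b, and 0 bp in all 4 libraries with TNFa or added VEGF (adjusted p = 0.152 and 0.356). The HOXD8 bin held 881 and 1281 bp in the controls and 370 and 642 bp with IL1b (log2 difference -0.87 ± 0.26 SE, adjusted p = 0.240). The HOXA3 bin held 903 and 807 bp and, with IL1b, 1286 and 1647 bp (0.65 ± 0.20 SE, adjusted p = 0.253).

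The mean response to both cytokines was compared between the lines in the same fit. Of the 24 HOX bins 0 were called (limma, 1.93% of all bins), and 1 had an unadjusted p under 0.05. This was the HOXD8 bin, at an adjusted p of 0.273, which is listed at 0 in every TeloHAEC library. Without Eahy926 IL1b 1.1, 2 HOX bins were called (3.15% of all bins).

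HOX peaks were lower than the typical peak of their library in TeloHAEC. Their median fold enrichment was 3.25 to 4.37 over the 10 TeloHAEC libraries, against 4.42 to 5.02 for all peaks, and was below that of all peaks in 10 of 10. In Eahy926 it was 4.41 to 5.36, against 4.50 to 5.31 for all peaks, and below in 5 of 10.

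Outside the clusters, coverage next to HOXC and HOXD was not confined to 1 line. On the 3' side of HOXD, a stretch as long as the window held 1138 ± 245 scaled bp in TeloHAEC and 1642 ± 173 in Eahy926 controls (SD, n = 4) and had a peak in all 20 libraries. On the 5' side it held 748 ± 118 and 456 ± 210 bp, with a peak in 9 of 10 libraries of each line. Beside HOXC few libraries had peaks, 3 TeloHAEC and 7 Eahy926 libraries on the 3' side and 0 and 1 on the 5' side. The 5' flank of HOXA held peaks in 9 TeloHAEC libraries and in no Eahy926 library, the reverse of the 5' genes inside the cluster.

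The 5 TALE cofactors examined were covered in both lines. MEIS1 had peaks in 10 TeloHAEC and 8 Eahy926 libraries, MEIS2, PBX3 and PKNOX1 in 10 of 10 of each line, and PBX2 in 9 and 7. Of their 17 tested bins, 6 were called higher in TeloHAEC controls and 0 lower, where 22.8% and 20.1% of all bins were. These were 1 of 4 at MEIS1, 3 of 4 at MEIS2, 2 of 5 at PBX3, 0 of 1 at PBX2 and 0 of 3 at PKNOX1. MEIS2 held 2369 ± 984 scaled bp in TeloHAEC and 1163 ± 127 in Eahy926 controls (SD, n = 4). Among the treatments, 1 of the 5 PBX3 bins was called, higher with TNFa in Eahy926.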

How the data were processed

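H3K27ac was measured by ChIP-seq in 20 ChIP and 4 input libraries of TeloHAEC and Eahy926. Reads were aligned to hg19 with Bowtie2 and peaks called with MACS2, per the submitters' processing notes. Each list came from a separate run of MACS 2.1.1.20160309 with a p threshold of 0.001 and no input control, per the file headers. The headers also state that q would not be calculated, yet the q column holds values, and the choice of peaks rests on it. The deposited pileup is a signal of stacked fragments not scaled for depth. Columns of -log10 p and -log10 q were deposited as the authors' peak caller wrote them, and fold enrichment was deposited as a ratio of pileup to local background.

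From the peak positions, the length under peaks was summed over the 22 autosomes and X (peaks with -log10 q at or above 2) in 10-kb bins and multiplied by the mean total covered length of the ChIP libraries (25.1 Mb) over the library's own. No read counts were used. Bins with 500 bp or more in at least 2 ChIP libraries were fitted as log2(scaled bp + 200) with limma 3.58.1 in R 4.3.3, in 1 fit of 10 group means. Benjamini-Hochberg adjustment was over all 39412 bins, and the fit was tested on simulated data. Clusters were compared by exact permutation tests (scipy 1.17.1) that exchanged libraries across library days. Fold changes on this scale understate differences of little covered bins.

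HOX gene starts were entered by hand for hg19, since the RefSeq table is on GRCh38.p14. For 32 of the 38 their spacing matched that table within 300 bp, and for HOXB3, HOXB8, HOXC4, HOXC5, HOXC6 and HOXD3 it did not, so peaks at another start of these genes would be missed. The same holds for HOXA3, for which RefSeq gives 7 starts and only 1 was entered. The members, gene lists and tests were chosen with earlier results of these data known. The text names the 38 HOX genes examined (1 HOX gene and 1 cofactor gene are not reported here), and of the called bins up to 3 per cluster and direction with the largest difference among those whose control libraries did not overlap between lines. Bins named outside this rule are said to be so. Replicate numbers were not used as pairs in the main fit. Of 29 same-day pairs of groups, 1 had a correlation of deviations over 0.1 (range -0.06 to 0.16). This cannot exclude that equal numbers share a culture.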

Additional observations from a re-analysis of the deposited data

Results flagged for a closer look

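In 5 of 30 groups of 4 control libraries, 1 library stood apart from the other 3 by Dixon's test at the 95% level. For normally distributed values chance flags about 1 in 20 groups at this level. Where 3 libraries are at 0, any value above 0 in the remaining library is flagged, so the 5 cannot be set against that rate. All values are unscaled bp under peaks within 1 kb of a gene start. At HOXB4, TeloHAEC control 1.2 had 871 bp and the other 3 TeloHAEC controls had 0, 73 and 0. At HOXB5, TeloHAEC control 0.2 had 263 bp and the other 3 had 0. At HOXB9, TeloHAEC control 1.1, the shallowest ChIP library with 3843129 tags, had 275 bp and the other 3 had 0. At HOXC5, Eahy926 control 0.1 had 596 bp and the other 3 Eahy926 controls had 0. At HOXC6, Eahy926 control 1.1 had 0 bp and the others had 470, 523 and 560.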

How the results depend on the processing

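Of the 9 named bins, 8 had their direction fixed by the filter, and in 174 refits 8 calls were lost, 5 for HOXA4 (4 given beside it, and adjusted p = 0.0601 without the 3 shortest lists, a setting added after the data were seen), 1 for HOXB2 (equal covered length) and 2 for its 5' neighbour (stricter peaks and equal peak numbers). Between lines, 19 HOX bins were called, 11 with an equal number of top peaks (17 bins tested), 5 with an equal covered length (8 tested), 10 with day 1 controls alone and 18 to 20 with 1 library left out. With the replicate block the count was 19 between lines, 0 for each treatment and for the difference between lines, and 1 and 5 for the days. The HOXA log2 difference was -1.24 with an equal number of top peaks (exact permutation p = 0.114), -1.68 on day 0, -1.26 on day 1 and -1.71 to -1.12 with 1 library left out. HOXB turned to -0.75 with equal numbers of top peaks (exact permutation p = 0.657) and to -1.02 (p = 0.429) with an equal covered length. HOXC was -4.46 on day 0, -4.43 on day 1 and -4.49 to -4.41 with 1 library left out, and HOXD -0.81 with an equal covered length (exact permutation p = 0.429), -4.08, -3.07 and -3.80 to -3.36. With 2 against 2 the exact test cannot go below 0.333, and with 3 against 4 not below 0.0571.

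The counts of 0 for treatments became 1 with stricter peaks (20 HOX bins tested) for IL1b and TNFa in TeloHAEC, VEGF omission and the difference between lines. Of all bins 4.89%, 3.95%, 1.41% and 2.93% were called. With equal peak numbers (17 tested) they became 1 for IL1b and TNFa in TeloHAEC, IL1b and TNFa in Eahy926 and the difference between lines. Of all bins 4.04%, 2.86%, 0.433%, 1.3% and 1.65% were called. With an equal covered length (8 tested) IL1b in TeloHAEC gave 2 (4.11% of all bins). With 5-kb bins (26 tested) IL1b in Eahy926 gave 1, TNFa in Eahy926 2 and the difference between lines 1 (0.941%, 1.22% and 2.11% of all bins). With controls of both days together (24 tested) the counts were 1 for IL1b in TeloHAEC and 1 for VEGF omission (6.39% and 7.08% of all bins). In Eahy926 they were 2 for IL1b, 3 for TNFa and 3 for VEGF addition (4.99%, 3.3% and 2.2% of all bins). For the difference between lines the count was 2 (5.69% of all bins). Without the 3 shortest lists TNFa in Eahy926 and VEGF addition gave 1 each (2.03% and 0.629% of all bins). With 1 library left out the counts ran from 0 to 2 for TNFa in TeloHAEC, 0 to 3 for VEGF omission, 0 to 3 for IL1b in Eahy926 and 0 to 2 for the difference between lines, where a lone library is assumed to vary like the other groups. Between days, TeloHAEC gave 4 with an equal number of top peaks, 4 with an equal covered length, 3 with stricter peaks and 1 to 3 with 1 library left out, and Eahy926 gave 3, 1, 7 and 3 to 5 under the same settings. The cause of these changes was not tested. Day 1 libraries of 3843129 to 7122108 tags limit what can be called at weak peaks.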
